A study of Caenorhabditis elegans with 4 samples.

Results

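UNC-62 peaks on the X chromosome of Caenorhabditis elegans are described here, taken as every row placed on X in the 3 deposited peak lists. They numbered 38 of the 113 peaks of ChIP replicate 1, 51 of the 174 of ChIP replicate 2 and 184 of the 900 of the list for the whole series, or 273 rows in all. A peak is a stretch of the WormBase WS220 genome with more ChIP than control reads, and the PeakSeq lists give its ends and how significant it is, with no read counts. The significance was treated as a q-value, because of how it runs along the ranked lists, and a lower q means a stronger call. Strength is also given below as −log10 q, which is higher for stronger peaks. Chromosomes II to V, with 67, 101 and 440 peaks in the same lists, served as the comparison. Chromosome I was not part of the comparison as it was defined. The series list holds 276 peaks there, of which 25 overlapped a peak of either replicate.

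The study used ChIP-seq to find where UNC-62 is bound in L4 hermaphrodites, the last larval stage. The series has 2 ChIP samples and 2 Input samples of the strain OP600, grown at 20 degrees Celsius, and all 4 carry the mutation unc119(ed3) together with wgIs600, a transgene of unc-62 tagged with TY1, EGFP and FLAG that also holds unc119. The transgene was put in by bombardment, and the labels list no mutation of the worm's own unc-62. Chromatin came from whole worms and was collected with anti-GFP antibodies, so a peak does not say in which cells the protein was bound, and no untagged strain is among the samples. An NCBI RefSeq gene table places unc-62 on V and unc-119 on III, so neither gene named in the transgene is an X gene. The integration site is not given in the sources used here.

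UNC-62 belongs to the Meis/Homothorax family of homeodomain transcription factors, which bind DNA together with PBC-class and Hox homeodomain partners and act in worm embryonic patterning, cell migration and the adult intestine. The X chromosome differs from the autosomes in several known ways. In hermaphrodites a dosage compensation complex lowers transcription from both X chromosomes, and X is largely silent in the germ line for much of its development. Its genes are also spread more evenly along its length, whereas the autosomes have gene-dense centres between arms rich in repeats.

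X carried more peaks per length than chromosomes II to V in every list, though its excess over chromosome III alone did not pass the test in either replicate list. Replicate 1 had 2.15 peaks per Mb on X, against 1.01 on II to V, a ratio of 2.13 (exact binomial test, adjusted p = 0.00118 over 11 tests). Replicate 2 had 2.88 per Mb on X, against 1.52 on II to V, a ratio of 1.89 (exact binomial adjusted p = 0.00116). The series list had 10.4 per Mb on X, against 6.64 on II to V, a ratio of 1.57 (exact binomial adjusted p = 8.96e-06). The series peaks of X spanned 4.11 kb per Mb, against 2.48 kb per Mb on II to V.

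Set against the 4 autosomes singly, a set of 12 tests chosen after the densities were seen, X stood above V by the widest margin, with ratios of 4.47 in replicate 1, 3.16 in replicate 2 and 2.08 in the series list (exact binomial adjusted p = 2.06e-05, 2.45e-05 and 1.36e-08). X was also denser than II and IV in all 3 lists. Against III the ratios were 1.10 in replicate 1 and 1.20 in replicate 2, and neither passed the test (exact binomial adjusted p = 0.803 and 0.483), while the series list gave 1.28 (exact binomial adjusted p = 0.0485). X and III thus had the highest densities in both replicate lists. Peaks are treated as independent in all tests here, although peaks of a list share a library and neighbouring peaks may be parts of 1 bound region. The labels do not say if the replicates were separate cultures, and the tests describe these libraries.

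**Figure D1:**
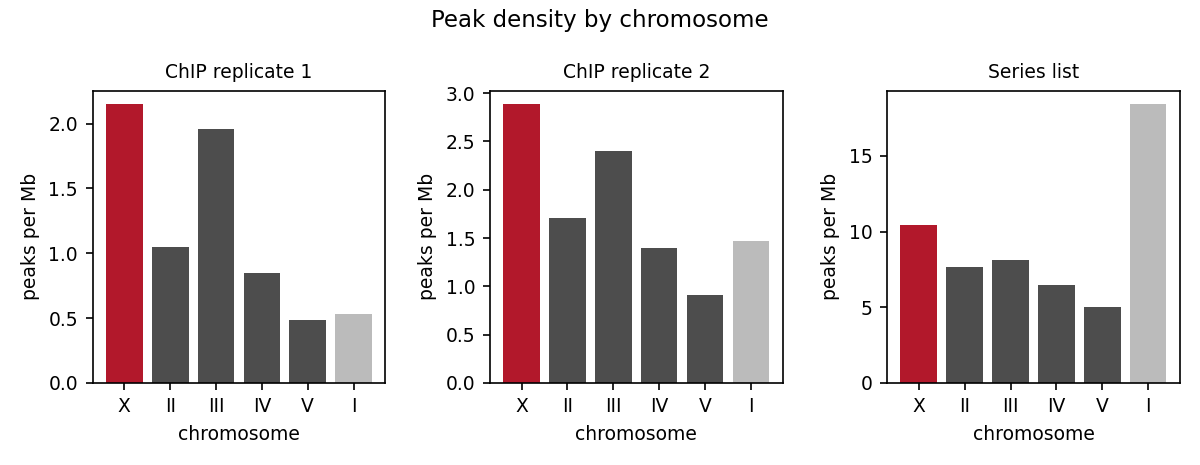
Bars give the number of peaks per Mb on each chromosome (x axis) in ChIP replicate 1, ChIP replicate 2 and the series list, with X in red, II to V in dark grey and I in light grey. X reaches 2.15, 2.88 and 10.4 peaks per Mb, with III next among II to V at 1.96, 2.40 and 8.14. Chromosome I stands at 0.534 in replicate 1 and 1.47 in replicate 2, but above X in the series list, at 18.4.

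Not all of these ratios held for the stronger peaks or for another comparison. Among the peaks of replicate 1 with q at or under its median, X held 16 and II to V held 37, and the ratio of 1.62 did not pass (exact binomial test, adjusted p = 0.200). The peaks at or under the median q of replicate 2 and of the series list gave ratios of 2.02 and 1.61. Both passed (exact binomial test, adjusted p = 0.0172 and 0.00222). With chromosome I added to the comparison, the series ratio was 1.18 and did not pass either (exact binomial test, adjusted p = 0.0712).

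Along X, peaks were spread from end to end without the central excess of the autosomes. Of the 184 series peaks, 44 lay in the left, 61 in the central and 79 in the right of 3 parts of equal length. The central part thus held 33.2% of the X peaks (exact interval 26.4 to 40.5%), against 49.8% on II to V (219 of 440, 45.0 to 54.5%) and 44.6% over all chromosomes. The difference between X and II to V passed the test (odds ratio 0.500, Fisher's exact test, adjusted p = 7.94e-04). Each of the 4 autosomes had a larger central share than X, from 44.9% on IV to 55.6% on II.

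The replicate lists showed the same order with fewer peaks. In replicate 1 the central part held 12 of 38 X peaks (31.6%), against 32 of 67 on II to V (47.8%). In replicate 2 it held 14 of 51 on X (27.5%), against 45 of 101 on II to V (44.6%). Neither difference passed the test in a single replicate list (Fisher's exact test, adjusted p = 0.235 and 0.100). The right part of X held more peaks than either other part in each list: 17 of 38 in replicate 1, 21 of 51 in replicate 2 and 79 of 184 in the series list. Whether the right part of X differs from its left part was not tested.

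**Figure D2:**
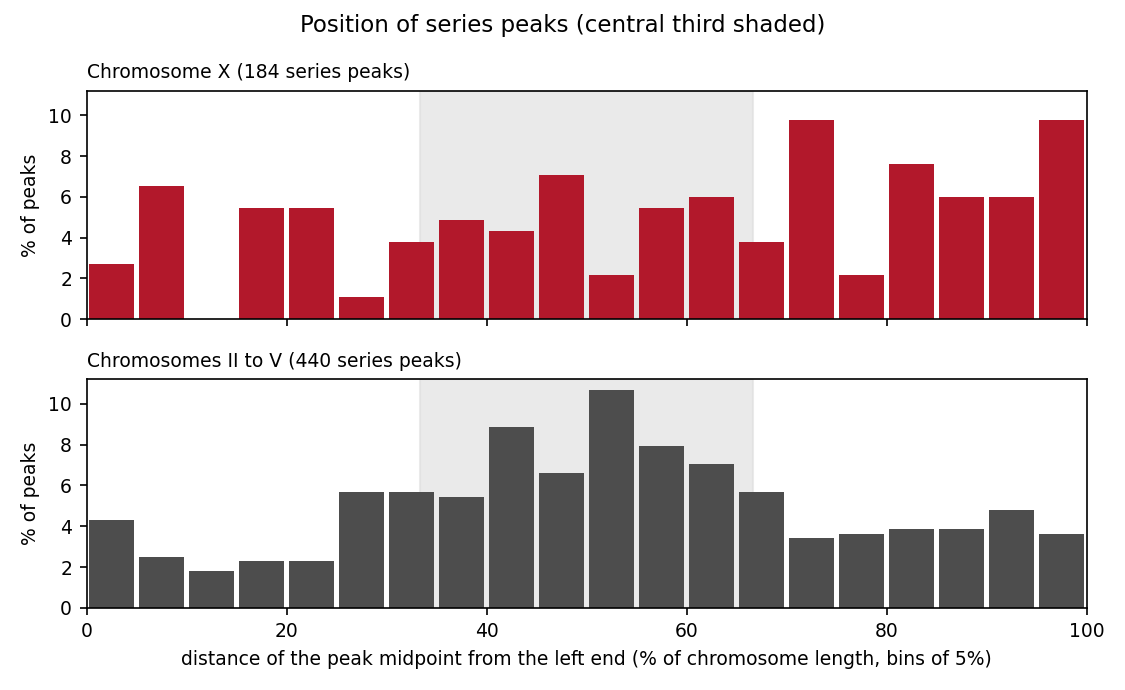
Each bar is the share of series peaks (y axis, %) whose midpoint lies in a bin of 5% of the chromosome's length, measured from the left end (x axis), for X above and for II to V below; the central of 3 equal parts is shaded. On X 33.2% of the peaks fall in the shaded part, and on II to V 49.8%.

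In windows of 1 Mb, all 18 windows of X held series peaks, from 5 to 16 with a median of 10.5. Each window also had at least 1 peak in replicate 1, at most 7, and at least 1 in replicate 2, at most 6. The window from 14 to 15 Mb had the most peaks of replicate 1, with 7, and the most of the 23 X regions called in both, with 5. Its 6 peaks of replicate 2 were matched by the window from 6 to 7 Mb, also with 6. The window from 17 to 18 Mb, which the lists fill only to 17684991, had the most series peaks with 16, but 1 peak of replicate 1 and 4 of replicate 2.

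X also had long stretches with no peak. The longest ran from 1627322 to 2802521, 1175 kb, and no peak of any of the 3 lists lay in it. The next were 897 kb from 4532479 to 5429286 and 621 kb from 13717435 to 14338917, again empty in all 3 lists. The first series peak began at 409989. Chromosomes II, III and V had longer stretches with no series peak, of 1480, 1530 and 1372 kb, while the longest on IV was 815 kb.

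Despite their higher density, X peaks less often had another peak within 5 kb. A neighbour within 5 kb was present for 34 of 184 X peaks (18.5%, exact interval 13.1 to 24.9%), against 123 of 440 on II to V (28.0%, 23.8 to 32.4%) and 29.6% over all chromosomes. The odds ratio was 0.584 (Fisher's exact test, adjusted p = 0.0329). This call rested on the distance chosen: within 2 kb the odds ratio was 0.785 and within 10 kb 0.811, neither past the threshold (Fisher's exact test, adjusted p = 0.536 and 0.417). It was also lost with III left out of the comparison (odds ratio 0.648, Fisher's exact test, adjusted p = 0.100). The distance to the nearest neighbour had a median of 23.1 kb on X and 27.4 kb on II to V, with lower quartiles of 8.53 kb on X and 3.95 kb on II to V.

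Joining peaks at most 5 kb apart left 165 separate regions on X, of which 15 held at least 2 peaks and 3 held at least 3. On II to V it left 369 regions, of which 52 held at least 2 peaks and 12 at least 3. These counts were not tested. The X group with most peaks, 4 within 13.5 kb, lay at X 6736395 to 6749912. It contained the peak with the lowest q on X and 2 of the 23 regions called in both replicates. A group of 3 peaks at X 14557291 to 14561991 also held 2 regions called in both replicates. The remaining group of 3, at X 13141366 to 13145565, had 1 peak with a counterpart, called in replicate 2.

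**Figure D3:**
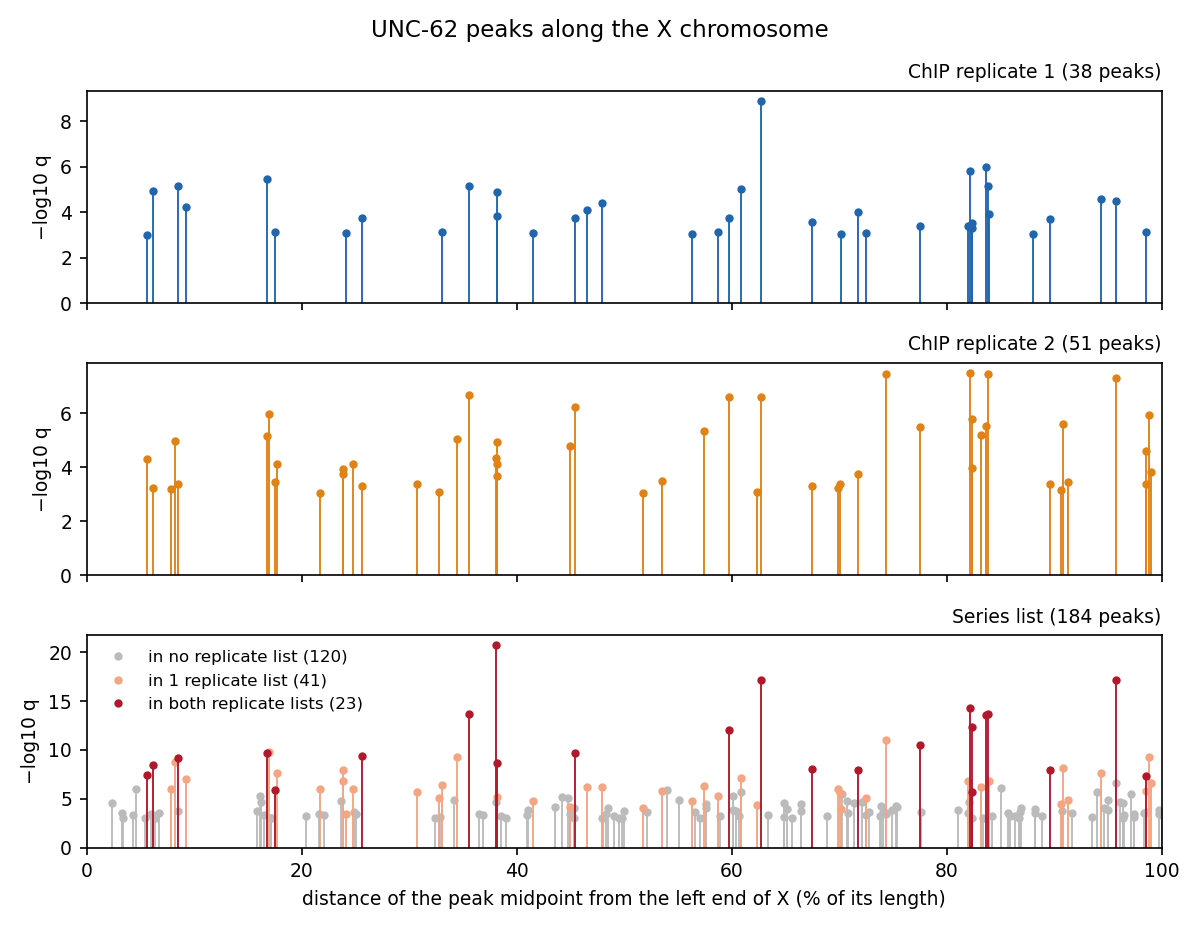
Vertical lines mark the peaks of X in ChIP replicate 1, ChIP replicate 2 and the series list by the distance of their midpoint from the left end (x axis, % of the length of X) and by −log10 q (y axis, each panel with its own scale). The 23 series peaks called in both replicates (dark red) run from 5.69 to 20.7 on this scale, and the bin from 10% to 15% of the length is empty in every panel.

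A series peak was counted as having a counterpart where at least 1 bp of it overlapped a peak of a replicate list. On X this was so for 64 of the 184 peaks (34.8%, exact interval 27.9 to 42.1%), against 119 of 440 on II to V (27.0%, 22.9 to 31.5%) and 23.1% over all chromosomes. The difference between X and II to V missed the threshold (odds ratio 1.44, Fisher's exact test, adjusted p = 0.100). It passed with chromosome III left out, where 23.5% of II, IV and V had a counterpart (odds ratio 1.74, Fisher's exact test, adjusted p = 0.0160), and with chromosome I added (odds ratio 2.12, adjusted p = 3.37e-04). Of the 64, 23 were called in both replicates, 14 in replicate 1 alone and 27 in replicate 2 alone. The 23 made up 12.5% of the X peaks, against 10.7% on II to V (47 of 440) and 8.33% over all chromosomes (odds ratio 1.19, Fisher's exact test, adjusted p = 0.636).

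Counterparts were concentrated among the stronger peaks, on X and on II to V, which was not tested. The series list may have been called on the replicates' own reads. Its q and the overlap with the replicate lists may therefore not be independent. Of the 100 peaks with the lowest q in the series list, 21 lay on X and all 21 had a counterpart, as did all 47 of II to V. Among ranks 101 to 200 it was 20 of 21 on X, against 41 of 47 on II to V. Among ranks 301 to 500 it was 8 of 32 on X (25.0%, exact interval 11.5 to 43.4%), against 13 of 103 on II to V (12.6%, 6.89 to 20.6%). Below rank 500, a counterpart was present for 1 of 83 X peaks and 1 of 202 peaks on II to V. At each rank class the intervals of X and II to V overlapped, and the classes were not tested singly.

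**Figure D4:**
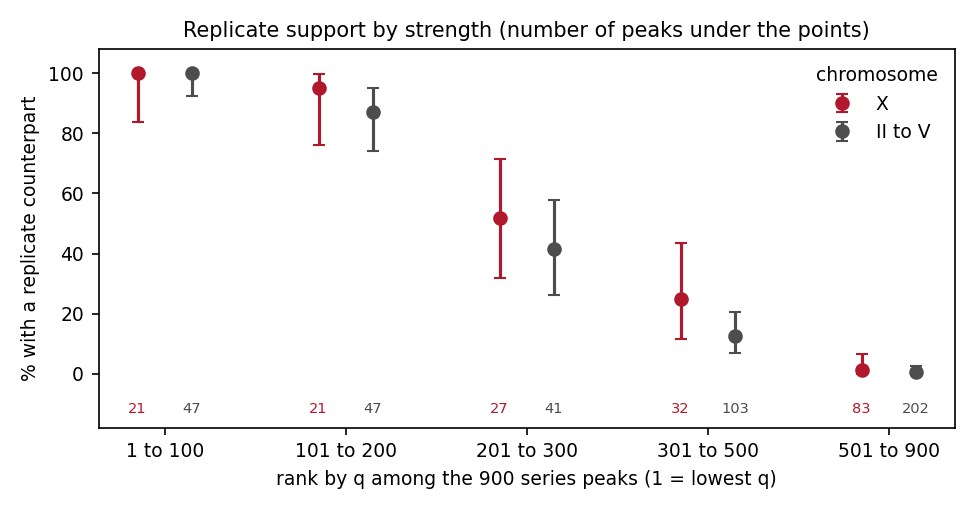
Points give the percentage of series peaks found in either replicate list (y axis, %) by rank of q in the series list (x axis, classes), for X in red and II to V in dark grey, with exact 95% intervals and the number of peaks below each point. On X the share is 100% for ranks 1 to 100, 95.2% for 101 to 200 and 51.9% for 201 to 300.

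Between the replicates, 23 of the 38 X peaks of replicate 1 were shared with replicate 2 (60.5%), against 47 of 67 on II to V (70.1%) and 66.4% over all chromosomes. The same 23 were 45.1% of the 51 X peaks of replicate 2, where II to V had 46.5% (47 of 101) and all chromosomes 43.1%. Neither share differed past the threshold between X and II to V (Fisher's exact test, adjusted p = 0.476 and 1). The midpoints of the paired X peaks lay a median of 34 bp apart and at most 155 bp. On X, 14 of the 23 pairs had the lower q in replicate 2 and 17 were wider there, against 35 and 31 of the 47 pairs on II to V.

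The q-values of the paired X peaks tracked each other in part. For −log10 q over the 23 pairs, Pearson's r was 0.458 and Spearman's rho 0.413, against 0.893 and 0.734 over the 47 pairs of II to V. These are descriptions over peaks that share 2 libraries. The X pairs covered a shorter range, from 3.01 to 8.90 in replicate 1 and 3.24 to 7.49 in replicate 2. The 35 pairs of II to V at or under those upper limits had an r of 0.466 and a rho of 0.434. That restriction was chosen after the values were seen. Whether the range accounts for the lower values on X was not tested.

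The region with the lowest q on X lay at X 6740749 to 6742483, was 1735 bp wide and had q = 2.04e-21 in the series list, rank 10 of 900. Its replicate counterparts had higher q, with 1.44e-04 at 6742109 to 6742433 in replicate 1, the rank 18 peak of X there. Replicate 2 had 2 peaks in it, at 6741176 to 6741826 with q = 4.39e-05 and at 6742042 to 6742454 with q = 7.46e-05. This wide region thus ranked first on X in the series list but only 18th, 23rd and 26th by its single replicate peaks. Starting 1165 bp to its right, the peak at X 6743649 to 6744292 had q = 1.29e-05 in replicate 1, 1.12e-05 in replicate 2 and 1.99e-09 in the series list.

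X 11093836 to 11094325 was the strongest peak of X in replicate 1, with q = 1.27e-09 there, 2.49e-07 in replicate 2 and 7.31e-18 in the series list. X 14525622 to 14526165 was the strongest peak of X in replicate 2, with q = 3.26e-08 there, 1.56e-06 in replicate 1 and 5.22e-15 in the series list. Their series peaks were 490 and 544 bp wide. X 16929435 to 16931013 was 1579 bp wide, with q = 3.37e-05 in replicate 1, 4.80e-08 in replicate 2 and 6.33e-18 in the series list. Its replicate peaks covered only the left part of it, to 16930081 in replicate 1 and 16930350 in replicate 2.

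The window from 14 to 15 Mb held 5 regions called in both replicates. Beside the peak at 14525622, X 14789975 to 14790687 had q = 1.05e-06 in replicate 1, 3.01e-06 in replicate 2 and 2.41e-14 in the series list. X 14818556 to 14819261 had q = 7.16e-06 in replicate 1, 3.62e-08 in replicate 2 and 2.36e-14 in the series list. The region at 14789975 ranked 2 on X in replicate 1 and 13 in replicate 2, and the one at 14818556 ranked 6 in replicate 1 and 3 in replicate 2. X 14559740 to 14560617 had q = 3.16e-04 in replicate 1, 1.62e-06 in replicate 2 and 4.02e-13 in the series list. The last of the 5, X 14561414 to 14561991, was the weakest of the 23 in the series list, with q = 2.06e-06 there, against 5.04e-04 and 1.05e-04 in replicates 1 and 2.

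Among the regions called in both replicates, several had a lower q in replicate 2 by more than 1.5 on the log10 scale. X 10568304 to 10569083 had q = 2.61e-07 in replicate 2 and 1.84e-04 in replicate 1, with 8.41e-13 in the series list. X 8036087 to 8036786 had q = 5.86e-07 in replicate 2 and 1.84e-04 in replicate 1, with 2.01e-10 in the series list. At X 13700583 to 13701068 it was 3.14e-06 in replicate 2 and 4.13e-04 in replicate 1, with 3.46e-11 in the series list. These 3 ranked 19 to 25 on X in replicate 1, while X 6296248 to 6296739 ranked 7 there, with q = 2.11e-07 in replicate 2 and 7.24e-06 in replicate 1, and 2.35e-14 in the series list.

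The reverse order was seen in 9 of the 23 regions. X 1504359 to 1505110 had q = 7.05e-06 in replicate 1 and 4.30e-04 in replicate 2, with 6.90e-10 in the series list. The gap was small at X 2971120 to 2971900, with q = 3.48e-06 in replicate 1, 6.87e-06 in replicate 2 and 2.04e-10 in the series list. X 4532063 to 4532478 was weak in both, with q = 1.91e-04 in replicate 1 and 4.93e-04 in replicate 2, though its series q was 4.60e-10. The 8 of the 23 regions not among the 15 with the lowest series q, 4 with the lower q in replicate 1 and 4 in replicate 2, had series q from 3.48e-09 to 2.06e-06, replicate 1 q from 1.23e-05 to 9.73e-04 and replicate 2 q from 4.91e-05 to 5.73e-04.

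**Figure D5:**
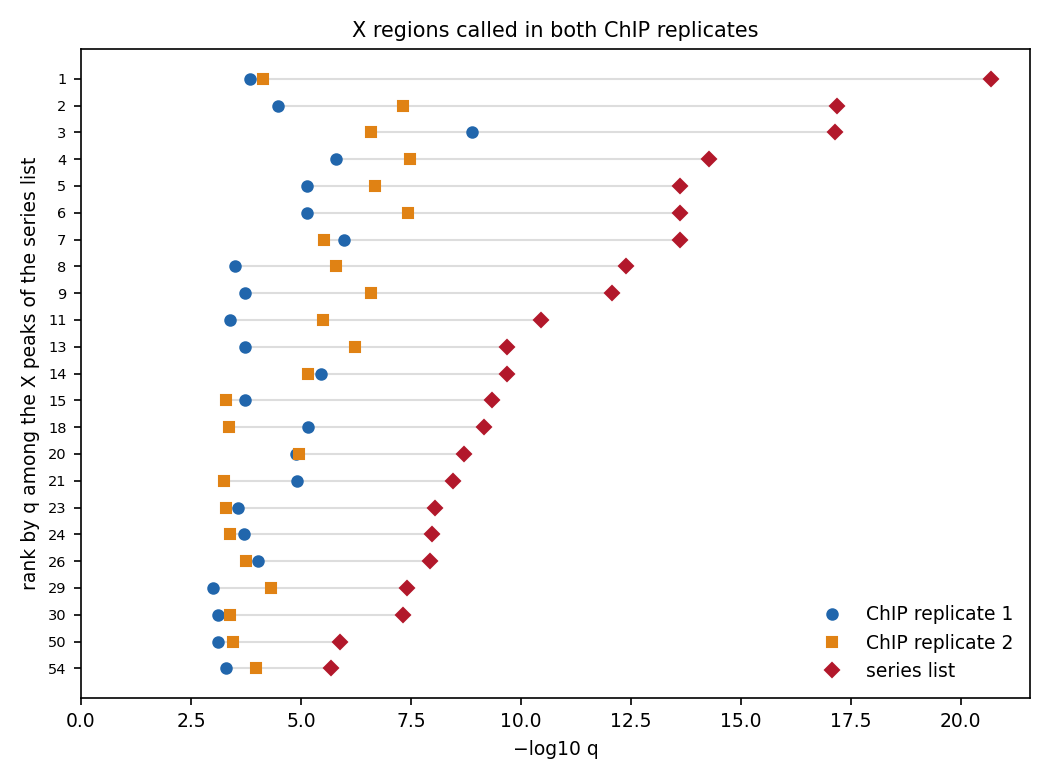
Each row is 1 of the 23 X regions called in both replicates, ordered by rank of q among the X peaks of the series list (y axis), with −log10 q (x axis) in ChIP replicate 1 (blue circles), ChIP replicate 2 (orange squares) and the series list (red diamonds). The series value is the highest in every row, and replicate 2 lies above replicate 1 in 14 of the 23.

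Of the X peaks seen in a single replicate, the strongest was at X 13145003 to 13145565. It had q = 9.89e-12 in the series list, rank 10 on X, and q = 3.56e-08 in replicate 2, rank 2 on X there. Among the 27 peaks in replicate 2 alone, the replicate q ran from 3.56e-08 to 9.12e-04, and 15 were above 1e-04. Among the 14 in replicate 1 alone it ran from 1.01e-05 to 9.13e-04, and 9 were above 1e-04. The deposited q-values all stayed under 0.001. The single X peak of a replicate with no series counterpart was at X 15564279 to 15564527, in replicate 1, with q = 9.40e-04.

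The remaining 120 X peaks of the series list had no counterpart. Their median q was 2.55e-04, against 1.14e-07 for the 64 with one, and their median width 283.5 bp, against 540 bp. The 5 with the lowest q were at X 16931227 to 16931961 (2.63e-07), 15040618 to 15040962 (7.83e-07), 806535 to 806855 (1.04e-06), 9547111 to 9547543 (1.18e-06) and 16612117 to 16612747 (2.09e-06). The first of them lay just to the right of the wide peak at 16929435, which was called in both replicates. Peaks of II to V with and without a counterpart differed in the same direction. There the median q was 1.92e-04 for the 321 without a counterpart, against 5.32e-08 for the 119 with one. Their median widths were 280 bp and 496 bp.

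The strongest peak of each list lay outside X. The median series q was 6.81e-05 on X and 7.85e-05 on II to V. A q of at most 1e-05 was found for 67 of 184 X peaks (36.4%), against 129 of 440 on II to V (29.3%) and 31.9% over all chromosomes (odds ratio 1.38, Fisher's exact test, adjusted p = 0.140). In replicate 1 the lowest q was 1.27e-09 on X, against 1.56e-20 on II to V. In replicate 2 it was 3.26e-08 on X, against 4.59e-22 on II to V. In the series list it was 2.04e-21 on X, against 2.95e-34 on II to V. Taken singly, III, IV and V each had a lower minimum than X in every list. The minimum on II was higher than on X, at 2.41e-06 in replicate 1, 3.13e-07 in replicate 2 and 8.14e-17 in the series list. Among the 10 strongest peaks, X had 2 in replicate 1, 0 in replicate 2 and 1 in the series list, against 7, 10 and 5 on II to V. The first X peak had rank 6 in replicate 1, 14 in replicate 2 and 10 in the series list. Among the 50 strongest, X had 14, 15 and 9, against 33, 29 and 24 on II to V. For scale, X held 38 of all 113 peaks of replicate 1, 51 of 174 of replicate 2 and 184 of 900 of the series list. II to V held 67, 101 and 440 of them. Whether X was short of strong peaks given these totals was not tested by rank. The median q on X was 1.84e-04 in replicate 1 and 7.46e-05 in replicate 2, against 6.30e-05 and 8.85e-05 on II to V, so the order of X and II to V differed between the replicates. Why the order differed was not tested. Read depth is unknown for each list, and a deeper library gives lower q at the same binding, so q-values of different lists are not on the same scale.

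The median series peak was 353.5 bp wide on X and 324 bp on II to V. A width of at least 500 bp was reached by 48 of 184 X peaks (26.1%), against 94 of 440 on II to V (21.4%) and 20.7% over all chromosomes (odds ratio 1.30, Fisher's exact test, adjusted p = 0.288). The widest X peak, 1901 bp at X 10146448 to 10148348, had a series q of 4.81e-07, and its counterpart in replicate 2 was 996 bp wide with q = 4.56e-06. Next after the 3 widest came 978 bp at X 14557291 to 14558268 and 951 bp at X 5728896 to 5729846. Both were among the weakest of X, with q = 8.02e-04 and 8.08e-04 and no counterpart. At the other end, 23 X peaks (12.5%) were narrower than 100 bp, against 54 on II to V (12.3%), and 0 of those 23 had a counterpart, against 0 of the 54 on II to V. Some were only 2 bp wide, such as X 12748161 to 12748162, with q = 2.03e-05. Such widths are far below a sonicated fragment, and how the deposited ends were set is not given in the sources used here.

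By width, a counterpart on X was found for 0 of 23 peaks under 100 bp, 6 of 45 from 100 to 299 bp, 25 of 68 from 300 to 499 bp and 30 of 45 from 500 to 999 bp, as well as for all 3 of 1000 bp or more. In the same classes II to V had 0 of 54, 21 of 148, 40 of 144, 50 of 85 and 8 of 9. Support was thus most frequent among the wide peaks on X and on II to V, which was not tested. The classes also differed in strength. On X the median series q was 2.56e-04 under 100 bp and 2.63e-07 from 500 to 999 bp, against 3.81e-04 and 6.75e-07 on II to V. Width and strength were not separated here. By position, a counterpart was present for 19 of 44 peaks in the left part of X (43.2%, exact interval 28.3 to 59.0%), 19 of 61 in the central part (31.1%, 19.9 to 44.3%) and 26 of 79 in the right part (32.9%, 22.7 to 44.4%), with overlapping intervals. On II to V it was 31 of 101 in the left part (30.7%, exact interval 21.9 to 40.7%). The central part had 56 of 219 (25.6%, 19.9 to 31.9%) and the right part 32 of 120 (26.7%, 19.0 to 35.5%), again with overlapping intervals. The left part had the highest share there too, but the parts were not tested on X or on II to V. The median series q on X was 2.30e-05 in the left, 8.54e-05 in the central and 7.11e-05 in the right part, against 8.53e-05, 9.49e-05 and 6.17e-05 on II to V.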

How the data were processed

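The peaks are PeakSeq calls on WormBase WS220, per the file headers and the source field of each row. Column 6 of each deposited list was treated as a q-value: its product with the number in the peak's name never fell along the ranked list. Not given in the sources used here are the aligner, the threshold, the read depth and the way the series list was built. If it was called on the replicates' reads, it is not independent of them. Peak numbers in the series list ran to 906, and 6 were not in it.

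Analysis used scipy 1.17.1 and numpy 2.4.6 under Python 3.11.15, and figures used matplotlib 3.10.9. Positions are those of the deposited rows. X was set against II to V in 11 two-sided tests: Fisher's exact test for shares, and an exact binomial test given lengths for densities. P-values were adjusted by the Benjamini-Hochberg method over the 11, with a threshold of 0.05. The ratio gives X over II to V. A second set of 12 tests took single chromosomes. Length was the largest coordinate in any list. Shares carry 95% Clopper-Pearson intervals for counting error only. The functions were checked on made-up lists.

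Regions named by rule were all on X. They were the 15 with the lowest series q among those in both replicates, and replicate peaks with no series counterpart. The rule also took the 5 series peaks with the lowest q of those in neither replicate, and the 5 widest. It took groups of at least 3 peaks with neighbours at most 5 kb apart, and the 3 longest empty stretches. Other regions were chosen for their values. The members, rules and tests were chosen with earlier results of these data known. The gene table is of assembly WBcel235, another build, and served for gene counts and chromosomes only. Neighbouring genes and sequences of the peaks were not analysed here. No peak list of an Input sample was used.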

Additional observations from a re-analysis of the deposited data

How the results depend on the processing

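Alternatives gave 101 values, of which 85 kept their side of the threshold without a change of direction, 7 lost their call, 3 gained one and 6 changed direction, none of these 6 being called either way; the cause was not tested unless given. Keeping only series peaks at least 100 bp wide, or only ranks 1 to 200, was chosen after seeing the data. Among ranks 1 to 200, 21 of 42 X peaks and 47 of 94 on II to V were in both replicates, an odds ratio of 1, counted among the 85. With all 5 autosomes as the comparison, the density ratio of X in the series list was 1.18 and lost its call, the odds ratio for a counterpart was 2.12 and gained one, and that for replicate 2 peaks shared with replicate 1 was 1.12. Chromosome I holds many unsupported series peaks. Without chromosome III the odds ratios were 1.74 for a counterpart and 1.64 for q at most 1e-05, both gaining a call, 0.648 for a neighbour within 5 kb, which lost it, and 1.10 for replicate 2 peaks shared. With the stronger peaks of each list, the density ratio in replicate 1 was 1.62 and lost its call, and the odds ratio for both replicates was 0.719. The central share gave 0.505 in replicate 1 and 0.471 in replicate 2, from fewer peaks, and lost its call in each. A neighbour within 2 kb gave 0.785 and within 10 kb 0.811, both without a call. Odds ratios changed direction with midpoints within 100 bp (1.07, replicate 2 peaks shared), q at most 1e-10 (0.936) and widths of at least 1000 bp (0.794). Counterparts without replicate 1 or without replicate 2 gave 1.29 to 1.40. Density ratios against gene counts were 2.98 in replicate 1, 2.66 in replicate 2 and 2.20 in the series list. No paired analysis was possible because no peak list of the same-numbered Input samples was used. Depth is unknown, so a peak not in a replicate list may still have been bound there.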
